A study of Mus musculus with 8 samples.

Results

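The chromatin at 54 genes for proteins of the cytoplasmic ribosome was followed in mouse spermatogonia as they differentiated after retinoic acid (RA). The 54 members were taken by symbol: a peak of open chromatin belonged to a member when its list of nearby genes, which the authors drew within 10 kb of each gene, held that symbol exactly. Of the 54, 53 had a peak in at least 1 library, out of 21490 genes with a peak in the series, and 147 of the 87144 merged regions carried a peak of a member. In total 49 members had a peak within 1000 bp of their start, the start region, and 48 of these start regions had a peak in all 8 libraries and could be tested. They comprised 26 genes of the large subunit, 19 of the small subunit and the 3 genes of the P stalk.

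The assay was ATAC-seq, in which a transposase cuts accessible DNA, applied to testis germ cells sorted for eGFP driven by the Piwil2 promoter. That promoter is active in germ cells from before birth through early spermatids, so the sort separates germ cells from somatic cells but not spermatogonia by type. All mice received WIN 18,446, an inhibitor of RA synthesis, for 7 days from 2 days post partum (100 mg/kg daily), which holds spermatogonia undifferentiated. The 0 h group (2 libraries, each the testes of 1 mouse) was collected with no RA injection and no vehicle, and is called Aundiff. The other groups, of 2 libraries each, received 200 µg RA at 9 days post partum and were collected 18 h (A1/A2), 48 h (A3) or 120 h (B) later. The strain is given as C57BL/6 x 129s4/SvJae in the labels and as C57BL/6 x SJL in the methods. Time after RA, age and the injection itself cannot be told apart in this design.

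Ribosomal proteins are made in equimolar amounts and in very large quantity in growing cells, and their genes are scattered over the genome with short, CpG-rich promoters that are open in nearly every cell type. Most of their transcripts begin with a 5′ terminal oligopyrimidine (TOP) tract, a stretch of C and T through which the mTOR pathway sets their translation. Factors known to bind such promoters include SP1, GABPA and other ETS factors, YY1 and NF-Y. Spermatogonia that commit to differentiation in response to RA enter a series of rapid divisions.

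The promoter sequences below are those of selected members. They are the 6 tested members with the YY1 letters, the highest start regions with an entry (Rplp0 and Rps2), and Rps9 and Rpl37. With Rps12, the latter 2 stayed furthest below 0 h at 120 h. Of the 6 with the YY1 letters, Rpl24, Rpl28 and Rps27 were among the 5 with the most negative change at 18 h. Rpl34, Rps19 and Rps28 were not. Each stretch holds the 100 bases before the RefSeq start and the first 20 transcribed bases, 5′ to 3′ on the gene's strand in build GRCm38.p6, which is mm10. Capitals mark matches to the motifs searched and the pyrimidine run at the start.
Rpl24 (chr16:55966175-55966294, plus strand): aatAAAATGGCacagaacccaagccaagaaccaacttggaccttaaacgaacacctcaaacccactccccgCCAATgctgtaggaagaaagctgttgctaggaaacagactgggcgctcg
Rpl28 (chr7:4792865-4792984, plus strand): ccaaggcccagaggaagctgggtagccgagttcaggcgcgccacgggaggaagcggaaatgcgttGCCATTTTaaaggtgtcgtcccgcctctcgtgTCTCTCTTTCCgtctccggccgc
Rpl34 (chr3:130730379-130730498, minus strand): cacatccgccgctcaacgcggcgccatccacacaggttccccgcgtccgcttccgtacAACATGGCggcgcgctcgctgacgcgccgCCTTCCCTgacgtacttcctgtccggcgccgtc
Rps19 (chr7:24884492-24884611, plus strand): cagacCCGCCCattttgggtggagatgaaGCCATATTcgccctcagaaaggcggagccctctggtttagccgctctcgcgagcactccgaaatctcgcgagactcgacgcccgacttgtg
Rps27 (chr3:90213629-90213748, minus strand): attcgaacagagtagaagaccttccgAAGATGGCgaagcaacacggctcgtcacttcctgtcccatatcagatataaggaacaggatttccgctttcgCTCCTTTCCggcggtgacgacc
Rps28 (chr17:33824543-33824662, minus strand): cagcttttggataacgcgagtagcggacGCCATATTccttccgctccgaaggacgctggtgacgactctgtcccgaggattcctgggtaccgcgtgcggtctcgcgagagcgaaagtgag
Rplp0 (chr5:115559367-115559486, plus strand): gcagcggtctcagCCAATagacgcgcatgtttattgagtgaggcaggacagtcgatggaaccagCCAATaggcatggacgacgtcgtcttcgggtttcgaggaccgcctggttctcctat
Rps2 (chr17:24719963-24720082, plus strand): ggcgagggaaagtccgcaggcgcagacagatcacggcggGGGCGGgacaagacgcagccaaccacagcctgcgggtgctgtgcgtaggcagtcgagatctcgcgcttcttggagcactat
Rps9 (chr7:3703941-3704060, plus strand): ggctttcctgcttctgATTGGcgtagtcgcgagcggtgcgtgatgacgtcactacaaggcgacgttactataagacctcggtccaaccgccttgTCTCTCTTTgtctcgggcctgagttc
Rpl37 (chr15:5116513-5116632, plus strand): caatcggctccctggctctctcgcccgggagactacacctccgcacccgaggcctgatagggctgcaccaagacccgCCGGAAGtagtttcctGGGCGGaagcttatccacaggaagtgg
The RefSeq promoter table held 44 of the 54 members, each with 250 bases before and 50 after its start. Rpl3, Rpl7, Rpl8, Rpl17, Rpl30, Rpl32, Rplp1, Rps14, Rps20 and Rps29 were not shown.

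The motifs were searched on both strands of these 300 bases, and a match was counted whether or not it overlapped another. The ETS letters CCGGAAG stood in 16 of 44 members (36.4%) and in 9.12% of the 27025 promoters in the table. The SP1 letters GGGCGG stood in 24 members (54.5% against 35.9%), and the YY1 letters AANATGGC in 7 (15.9% against 6.23%). Counted from the first transcribed base, the outer end of these YY1 letters lay between positions -35 and -74 in Rpl28, Rpl34, Rps19, Rps27 and Rps28, and at -97 in Rpl24. A run of at least 8 pyrimidines, read on the gene's strand and touching the 31 bases centred on the start, was present in 22 of the 44 members and in 17.8% of all promoters, with a median length of 11 bases. NF-Y letters CCAAT stood in 13 members (29.5% against 37.9%) and TATAAA boxes in 3, Rplp0, Rps2 and Rps28 (6.82% against 14.2%). The E-box CACGTG was found in 5 members (11.4% against 7.24%). These shares were not tested, and they depend on the window: in the 200 bases before the start the SP1 letters stood in 16 members (36.4% against 31.3%), the ETS letters in 13 (29.5% against 6.45%) and the YY1 letters in 7 (15.9% against 3.06%). The perfect DR5 and DR2 direct repeats of RA receptors each matched in 0 members and in 2 promoters of the table. The median G+C content was 59.0% in members, from 40.7% in Rpl4 to 72.3% in Rps10, and 52.7% in all promoters.

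Member starts were called open at nearly every timepoint. A start peak was present for 49 members in 7 libraries and for 48 in the other, 18 h replicate 1, which lacked a peak at Rpl10a. Of all genes with a peak in the series, 46.7% (10035 of 21490) had a start peak in both libraries of all 4 timepoints, whereas 88.9% of members (48 of 54) did. Over all genes, 15169 and 15271 had a start peak in the 0 h libraries and 11400 to 13117 in the later ones. With the limit to the start set at 500 bp the members called throughout were 47, and they were 48 with a limit of 3000 bp, with only peaks of summit value 50 or more, and with the 24643 highest peaks of each library. The calls at member starts therefore carried almost no difference between timepoints, and what differed was the height of the peaks.

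The height of a region is the summit value, which is the coverage of extended tags at the highest point of the peak in libraries that the authors had reduced to equal tag number. The number of tags behind a value is not in the values used here, so no counting interval is given. In what follows the values of the 2 libraries of a timepoint stand together, replicate 1 first. Over the 48 members the median height was 284.0 and 362.0 (0 h), 128.0 and 175.0 (18 h), 135.0 and 152.0 (48 h), then 336.0 and 246.0 (120 h). The median over all 15536 regions with a peak in every library was 224.0 and 270.0 (0 h), 91.0 and 116.0 (18 h), 86.0 and 102.0 (48 h), then 166.0 and 106.0 (120 h). The members lay above the median region in every library, and the gap on the log2 scale was 0.34 and 0.43 (0 h), 0.50 and 0.59 (18 h), 0.65 and 0.58 (48 h), then 1.02 and 1.22 (120 h). Start regions that held a CpG island, the 7954 regions most like the members in kind, had a smaller gap to the median region of 0.20 to 0.37 up to 48 h and of 0.49 and 0.69 at 120 h.

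**Figure D1:**
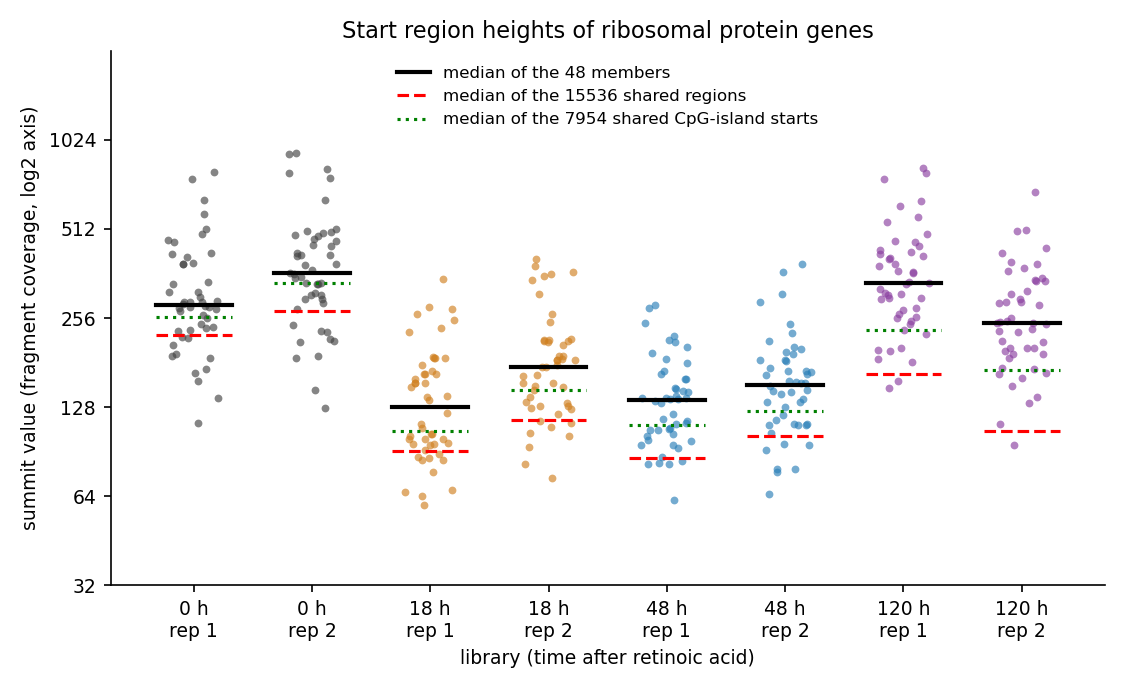
Summit value (coverage, log2 axis) of the 48 member start regions in each library; each point is a member, the black line the median of the members, the red dashed line that of all 15536 shared regions and the green dotted line that of 7954 shared CpG-island starts. Member medians sit between 128.0 and 175.0 at 18 h and 48 h and between 246.0 and 362.0 at 0 h and 120 h, and the distance from black to red is widest at 120 h.

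Ranked within a library among the shared regions, the median member stood at the 64.8th and 67.1st percentile at 0 h, between the 70.7th and 75.9th at 18 h and 48 h, and at the 79.3rd and 80.4th at 120 h. Ranked among CpG-island starts alone, the median member stood at the 56.0th and 55.1st percentile at 0 h, between the 60.7th and 62.8th at 18 h and 48 h, and at the 67.2nd and 67.3rd at 120 h. The members were thus not uniformly high: the lowest member was at the 10.8th percentile in 0 h replicate 1, and the SD of log2 height across members within a library was 0.50 to 0.64. The lowest member in 6 of the 8 libraries was Rpl19, and the highest was Rplp0, Rps2, Rpl27 or Rpl37. The median peak at a member start was 742.0 and 775.0 bp long in the 0 h libraries, 514.0 and 618.0 bp in those of 18 h, and 608.0 to 693.0 bp afterwards. The median summit kept its place, at -32 to -47.5 bases from the start in the 8 libraries, with 35 to 40 of the 48 within 100 bases of it. Single members differed in this: across libraries the summit ranged from -86 to 426 in Rpl19 and from -5 to 443 in Rpl11. In Rplp0 it stayed at -75.

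Replicates differed by a common shift. In the 120 h pair all 48 members were lower in replicate 2, by a median of -0.46 on the log2 scale (all regions -0.54), and in the 18 h pair 45 of 48 were higher in replicate 2, by a median of 0.41 (all regions 0.36). At 0 h and 48 h the median shift of the members was 0.25 and 0.17. Since such shifts move every region of a library together, each comparison is given for the heights as deposited, which is the main test, and for heights centred on the median region of each library. The test was limma on log2 height over all 15536 regions with the Benjamini-Hochberg adjustment, and a change was called at an adjusted p under 0.05. The heights as deposited gave a single pooled spread, with a standard error of 0.37 for every change. The prior degrees of freedom of that fit were infinite, so the pooled spread was treated as known. Its p-values therefore do not use the spread between replicates of a single region, and shifts common to a library enter the pooled spread. After centring, the standard error of a member's change was 0.19 to 0.27. An exact test of 2 libraries against 2 cannot give a two-sided p below 0.333.

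The 18 h comparison asks how the promoters stood after the first exposure to RA, which cannot be told apart here from age or the injection. At 18 h the start regions of 47 of the 48 members fell and 0 rose (limma, 0 higher also at an unadjusted p under 0.05), by a median of 1.10 on the log2 scale, or 2.15-fold. The exception was Rpl19, at -0.59 ± 0.37 (SE, adjusted p = 0.115). Among all shared regions 92.3% fell, 0.296% rose and the median change was -1.23 (2.35-fold lower), so the share of members called is near that of all regions. In all 48 members both 18 h libraries lay below both 0 h libraries, as they did in 97.2% of all regions. After centring, 0 members were called in either direction (limma, 3 higher and 0 lower at an unadjusted p under 0.05), against 1.25% of regions higher and 0.225% lower, and the members' median change was 0.16 against 0.03 for all regions. Of the single libraries left out, 18 h replicate 1 brought the count as deposited to 14 and 0 h replicate 2 to 18.

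At 48 h the picture was alike. The start regions of 47 members fell by a median of 1.20 on the log2 scale (2.3-fold), against 93.3% of all regions and a median of -1.36 (2.57-fold lower). The number higher was 0 (limma, 0 also at an unadjusted p under 0.05), against 0.328% of regions. The largest drop was at Rpl37, to 3.62-fold lower (log2 change -1.86 ± 0.37, adjusted p = 6.43e-06), and the smallest at Rpl32 (-0.67 ± 0.37, adjusted p = 0.0755). After centring 0 members were called (limma, 4 higher and 1 lower at an unadjusted p under 0.05), against 3.26% of regions higher and 1.51% lower, with a median member change of 0.19. Without 0 h replicate 2 the count as deposited was 30. From 18 h to 48 h limma called 0 members lower and 0 higher (0 also at an unadjusted p under 0.05), and of all regions 0.00644% lower and 0.0% higher. The median member change between these times was -0.12, and leaving out 18 h replicate 2 made it 0.10, leaving out 18 h replicate 1 -0.32. In 9 of 48 members both 48 h libraries were below both 18 h libraries, as in 19.9% of all regions. In the single member Rpl23, with 100 and 129 at 18 h and 132 and 166 at 48 h, both later libraries were above both earlier ones, as in 5.22% of all regions.

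At 120 h, in type B spermatogonia, the member starts stood close to their 0 h height. As deposited, 1 of 48 members was lower than at 0 h, which was Rps9 (-0.91 ± 0.37, adjusted p = 0.0348), and 0 were higher (limma, 0 at an unadjusted p under 0.05), whereas 44.8% of all regions were lower and 0.882% higher. The members' median change was -0.17 and that of all regions -0.75 (1.68-fold lower), and 47 of the 48 members lay above the median region. The members' median turned with single libraries: leaving out replicate 2 of 0 h or of 120 h made it 0.03 or 0.07, and leaving out replicate 1 of 0 h or of 120 h made it -0.31 or -0.35. Relative to the median region of the same library, 34 of 48 members (70.8%) were higher and 0 lower, against 23.0% of regions higher and 15.8% lower. The direction thus depends on the scale: a median member change of -0.17 as deposited was 0.72 after centring. For CpG-island starts the centred median was 0.36 and 2541 of 7954 were higher. Scaling the libraries on regions at gene starts left 18 members higher with a median of 0.45, and quantile normalization left 13. Leaving out 120 h replicate 2 gave a centred count of 13, and leaving out 0 h replicate 1 gave 19. After centring without 120 h replicate 2, the members called were Rpl4, Rpl7a, Rpl11, Rpl13, Rpl17, Rpl19, Rpl26, Rpl27, Rpl34, Rpl38, Rplp1, Rps14 and Rps27. The call of Rps9 as deposited was lost when 0 h replicate 2, either 48 h library or 120 h replicate 2 was left out (0 members lower), and 6 members were lower when 120 h replicate 1 was left out.

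**Figure D2:**
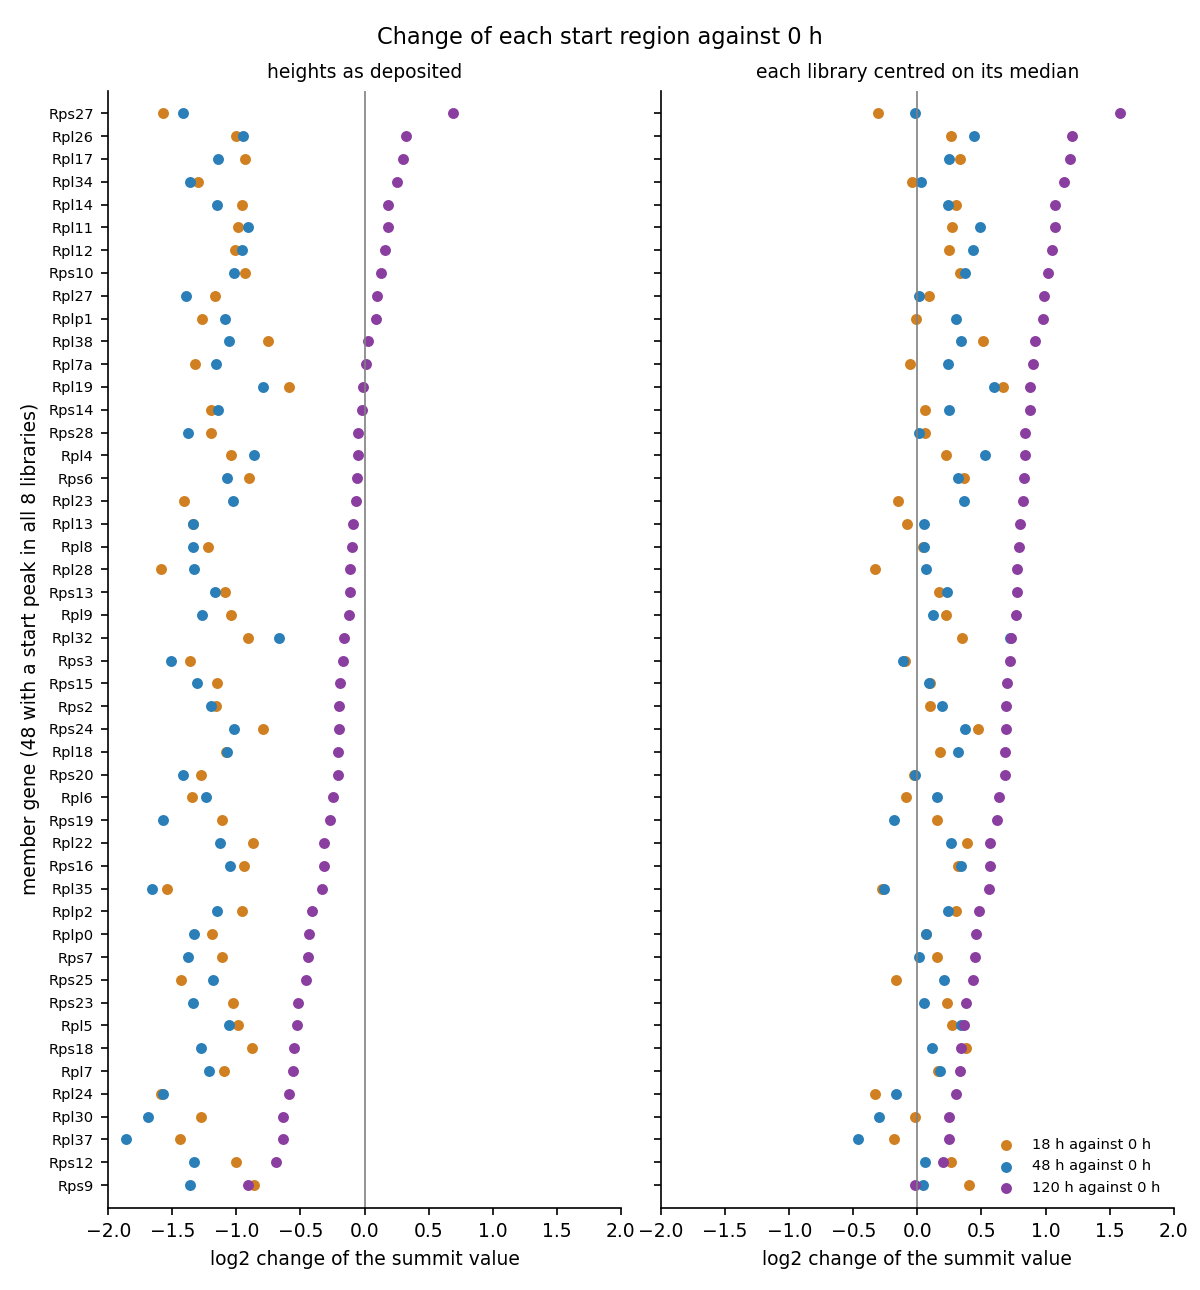
Log2 change of the summit value of each member start region at 18 h, 48 h and 120 h against 0 h (one row per member, ordered by the change at 120 h), for heights as deposited on the left and for libraries centred on their median region on the right. On the left the 18 h and 48 h points lie between -1.86 and -0.59 and the 120 h points around 0; on the right 47 of the 48 points at 120 h are above 0.

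Most member starts rose from 48 h to 120 h. As deposited, 32 of 48 rose and 0 fell (limma, 42 higher and 0 lower at an unadjusted p under 0.05), by a median of 1.07 on the log2 scale (2.1-fold), against 23.7% of all regions higher, 0.18% lower and a median of 0.56. In 47 of the 48 members both 120 h libraries were above both 48 h libraries, as in 55.2% of all regions, and the exception was Rps9. After centring 18 members (37.5%) rose and 0 fell (limma, 0 also at an unadjusted p under 0.05), against 9.47% of regions higher and 7.45% lower. The count as deposited fell when either 48 h library or 120 h replicate 1 was left out, which leaves 1 library in that group. The members' median rise in these fits was 1.01 (without 48 h replicate 1), 1.15 (48 h replicate 2) and 0.85 (120 h replicate 1). Without 120 h replicate 2 it was 1.29. The centred count dropped to 0 for 48 h replicate 2, to 1 for 120 h replicate 2 and to 2 for 48 h replicate 1, and quantile normalization left 1 member. Comparisons that use the 0 h libraries share them, as do those that use the 48 h libraries, so their members' values are not independent.

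Rps27, a zinc-binding protein of the small subunit, had the largest change of the members from 48 h to 120 h. Its start region (chromosome 3, 90213305 to 90214171, mm10) measured 239 and 232 (0 h), 85 and 74 (18 h), 82 and 95 (48 h), then 421 and 342 (120 h). The 4 libraries of 18 h and 48 h lay below both 0 h libraries, and both 120 h libraries lay above them. It fell 2.97-fold at 18 h (log2 change -1.57 ± 0.37, adjusted p = 0.00018) and rose 4.3-fold from 48 h to 120 h (SE 0.37 on the log2 scale, adjusted p = 1.61e-05). Against 0 h its height at 120 h was 1.61-fold (0.69 ± 0.37, adjusted p = 0.116) as deposited, and 1.58 ± 0.23 on the log2 scale relative to the median region (adjusted p = 0.000534). Besides Rps27, the members Rpl12, Rpl26 and Rpl34 also had both 120 h libraries above both 0 h libraries, which was seen in 2.14% of all regions. For Rpl12, whose start region is shared with the start of Lrsam1, the margin was narrow (172 and 146 at 0 h, 182 and 173 at 120 h).

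Rps9, which lies near the channel where mRNA enters the small subunit, stood at the other end of the members at 120 h. Its start region measured 274 and 419 (0 h), 188 and 186 (18 h), 95 and 184 (48 h), then 203 and 161 (120 h). The 48 h libraries differed from each other and overlapped those of 120 h. Its change from 48 h to 120 h was the smallest of the members at 0.45 ± 0.37 (adjusted p = 0.376), and after centring its change at 120 h against 0 h was -0.02 ± 0.26. With Rps9, 10 members (20.8%) had both 120 h libraries below both of 0 h, namely Rpl5, Rpl7, Rpl24, Rpl30, Rpl37, Rps7, Rps12, Rps18 and Rps25, against 68.2% of all regions. Rps12, at the beak of the small subunit, measured 301 and 419 (0 h), 166 and 191 (18 h), 117 and 170 (48 h), then 244 and 198 (120 h), which was -0.69 ± 0.37 at 120 h against 0 h (adjusted p = 0.114).

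**Figure D3:**
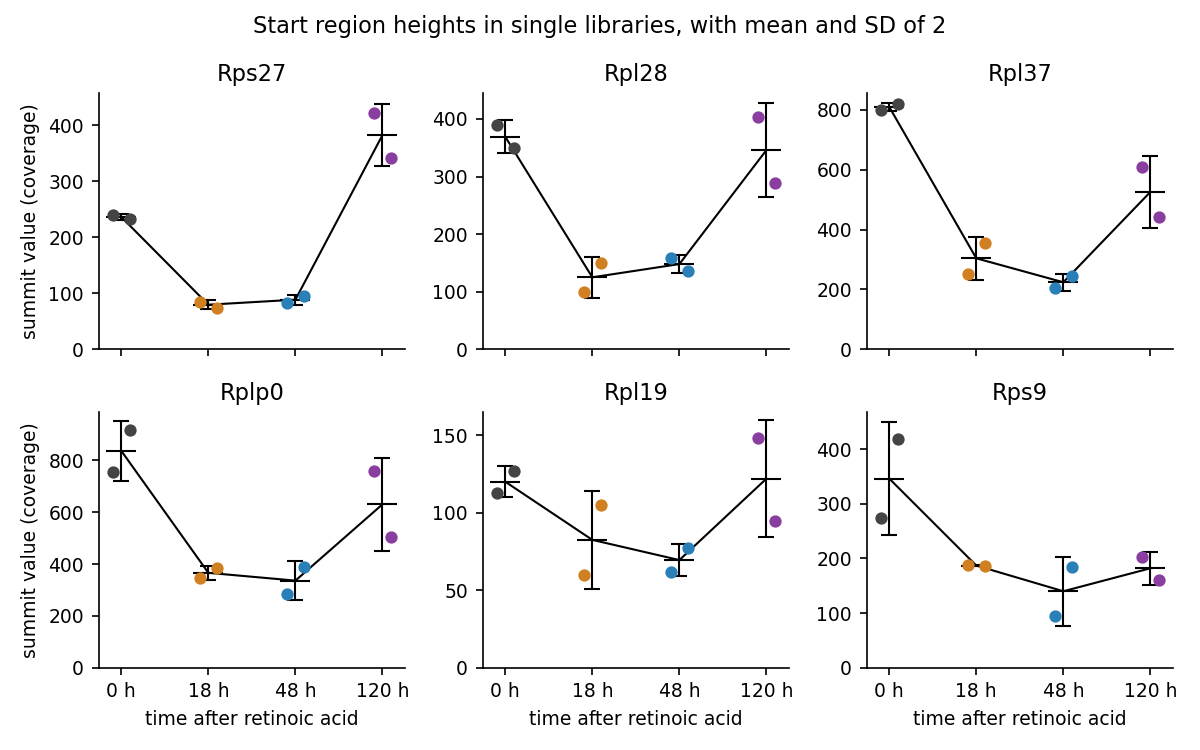
Summit value (coverage) of 6 member start regions by time after RA; coloured points are single libraries, the black line joins the means and the bars show the SD of 2 libraries. Rps27 at 120 h (421 and 342) lies above its 0 h values (239 and 232), whereas Rps9 at 120 h (203 and 161) lies below its own (274 and 419).

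The P stalk recruits translation factors to the ribosome, and its 3 genes differed in height. Rplp0, the stalk's base and the member with the highest mean, measured 755 and 918 (0 h), 348 and 385 (18 h), 283 and 390 (48 h), then 758 and 503 (120 h). Its 4 libraries of 18 h and 48 h did not overlap the other 4. Rplp1 measured 338 and 386 (0 h), 122 and 185 (18 h), 166 and 173 (48 h), then 494 and 298 (120 h), and was higher at 120 h relative to the median region (0.98 ± 0.20, adjusted p = 0.00311). Rplp2 measured 313 and 363 (0 h), 140 and 214 (18 h), 148 and 155 (48 h), then 320 and 202 (120 h), below the median member in both 120 h libraries. In both Rplp0 and Rplp2 the centred change at 120 h missed the threshold (adjusted p = 0.0795 and 0.0682).

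Among large subunit proteins, the highest start region was that of Rpl27, at 640 and 763 (0 h), 280 and 343 (18 h), 246 and 290 (48 h), then 823 and 682 (120 h). Its rise from 48 h to 120 h was 2.8-fold (1.49 ± 0.37, adjusted p = 0.00454), the third largest after Rps27 and Rpl34. Rpl34 measured 286 and 333 (0 h), 96 and 163 (18 h), 99 and 145 (48 h), then 389 and 345 (120 h), and its rise was 3.06-fold (1.61 ± 0.37, adjusted p = 0.00214). Without 48 h replicate 1 neither rise was called (adjusted p = 0.197 for both). Rpl37, a zinc-binding protein, was the highest member in 0 h replicate 1 and measured 800 and 819 (0 h), 253 and 354 (18 h), 204 and 245 (48 h), then 610 and 442 (120 h). Its height at 120 h against 0 h was -0.64 ± 0.37 (adjusted p = 0.147), so its libraries of 120 h stood between those of 48 h and 0 h. Rpl22, whose paralog Rpl22l1 can take its place, measured 512 and 643 (0 h), 275 and 360 (18 h), 223 and 309 (48 h), then 542 and 390 (120 h).

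The largest drops at 18 h were shared by Rpl28, Rpl24, Rps27, Rpl35 and Rpl37, with log2 changes from -1.59 to -1.44. Rpl28, a protein that budding yeast lacks, measured 389 and 349 (0 h), 100 and 150 (18 h), 159 and 136 (48 h), then 404 and 289 (120 h). Its drop was 3.01-fold (adjusted p = 0.000156) as deposited and -0.33 ± 0.23 after centring (adjusted p = 0.591). Rpl24, whose loss of a copy causes the Belly spot and tail phenotype in mice, measured 221 and 214 (0 h), 64 and 82 (18 h), 83 and 65 (48 h), then 186 and 112 (120 h), a 3.0-fold drop at 18 h (adjusted p = 0.000159). Rpl35, near the exit of the peptide tunnel, measured 289 and 390 (0 h), 100 and 133 (18 h), 102 and 111 (48 h), then 309 and 231 (120 h). All 5 had 18 h libraries well below their 0 h libraries, and none differed from the median region at 18 h after centring (adjusted p from 0.591 to 0.767). Of the tested members with the YY1 letters the median change at 18 h was -1.44 (6 members) and of those without it -1.04 (34 members). Narrower splits came from CCAAT (-1.27 against -1.06), the SP1 letters (-1.14 against -1.02), TATAAA (-1.19 against -1.04) and the E-box (-1.13 against -1.08). The ETS letters (-0.99 against -1.10) and the pyrimidine run (-0.99 against -1.13) went the other way. At 120 h against 0 h the YY1 medians were -0.08 with and -0.20 without the letters. These splits describe few genes and were not tested.

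The smallest drops at 18 h were those of Rpl19, Rpl38, Rps24, Rps9 and Rpl22, from -0.59 to -0.87. Rpl19, which forms a bridge between the subunits and had the lowest mean of the members, measured 113 and 127 (0 h), 60 and 105 (18 h), 62 and 77 (48 h), then 148 and 95 (120 h). Its 18 h libraries were far apart, and each of them lay below both 0 h libraries. Rpl38, required for translation of Hox mRNAs in the embryo, measured 157 and 230 (0 h), 97 and 132 (18 h), 87 and 96 (48 h), then 226 and 167 (120 h) (18 h against 0 h -0.75 ± 0.37, adjusted p = 0.0478). That call was lost under the replicate block (adjusted p = 0.0632) and with an intensity trend in the fit (0.0688), and the change was -0.47 without 0 h replicate 2 (adjusted p = 0.339) and -0.53 without 18 h replicate 1 (adjusted p = 0.279). The calls of Rps24, Rps9 and Rpl22 at 18 h were also lost without either of these libraries. Rps24, mutated in some families with Diamond-Blackfan anaemia, measured 291 and 333 (0 h), 155 and 208 (18 h), 144 and 164 (48 h), then 299 and 246 (120 h). After centring, all 5 had a positive change at 18 h (0.67, 0.51, 0.47, 0.40 and 0.39 in the order given), with no adjusted p under 0.162. Rpl12, at the base of the stalk, and Rpl32 were the other low start regions. Rpl12 measured 172 and 146 (0 h), 66 and 94 (18 h), 84 and 79 (48 h), then 182 and 173 (120 h), and Rpl32 137 and 190 (0 h), 67 and 110 (18 h), 98 and 105 (48 h), then 157 and 132 (120 h).

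The remaining large subunit members that stood higher at 120 h relative to the median region had intermediate heights. Rpl5 and Rpl11 bind 5S rRNA together and, when free, inhibit Mdm2. Rpl11 measured 193 and 212 (0 h), 92 and 113 (18 h), 104 and 112 (48 h), then 272 and 194 (120 h), and Rpl5 measured 271 and 337 (0 h), 154 and 151 (18 h), 140 and 151 (48 h), then 234 and 188 (120 h). They parted at 120 h, where the centred change was 1.07 ± 0.20 for Rpl11 (adjusted p = 0.00166) and 0.36 ± 0.21 for Rpl5 (adjusted p = 0.189), a difference that was not tested. Rpl4 and Rpl17 line the tunnel through which the new peptide leaves. Rpl17 measured 167 and 188 (0 h), 85 and 102 (18 h), 82 and 79 (48 h), then 276 and 172 (120 h), with a centred change of 1.19 ± 0.20 at 120 h (adjusted p = 0.00104). Rpl4, whose highest start region is shared with the start of Zwilch, measured 190 and 217 (0 h), 77 and 126 (18 h), 113 and 111 (48 h), then 256 and 151 (120 h). The summits of that region lay between -635 and -491 bases from the Rpl4 start. Another start region lay nearer, and its values are not given here. Rpl26, which like Rpl35 and Rpl17 sits around the tunnel exit, measured 245 and 275 (0 h), 109 and 154 (18 h), 136 and 133 (48 h), then 366 and 288 (120 h), and its centred change was 1.21 ± 0.21 (adjusted p = 0.00116).

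Rpl14 measured 220 and 484 (0 h), 159 and 178 (18 h), 137 and 157 (48 h), then 429 and 317 (120 h). Its 0 h libraries were 220 and 484, the widest pair of the members at that time by ratio, so its centred change of 1.07 ± 0.26 at 120 h (adjusted p = 0.00716) rests on libraries that differ. Rpl13 measured 461 and 505 (0 h), 170 and 215 (18 h), 186 and 194 (48 h), then 560 and 368 (120 h), and Rpl23, at the interface of the subunits, 293 and 312 (0 h), 100 and 129 (18 h), 132 and 166 (48 h), then 337 and 245 (120 h). Rpl7a, whose start region is shared with that of Med22, measured 208 and 297 (0 h), 86 and 115 (18 h), 112 and 111 (48 h), then 297 and 212 (120 h). Its centred changes were 0.90 ± 0.20 against 0 h and 0.67 ± 0.20 against 48 h (adjusted p = 0.00517 and 0.0419). Rpl8 measured 234 and 351 (0 h), 104 and 146 (18 h), 107 and 120 (48 h), then 306 and 235 (120 h), and Rpl6 280 and 306 (0 h), 95 and 138 (18 h), 108 and 142 (48 h), then 299 and 202 (120 h). In both, the libraries of 120 h and 0 h overlapped. Rpl9, which shares its region with the start of Lias, measured 392 and 499 (0 h), 187 and 248 (18 h), 147 and 228 (48 h), then 416 and 397 (120 h), and Rpl18, which shares it with Sphk2, 280 and 490 (0 h), 166 and 184 (18 h), 159 and 196 (48 h), then 334 and 308 (120 h). Where a region is shared, its height cannot be assigned to either gene.

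Small subunit members that were higher at 120 h relative to the median region numbered 12 of 19. Rps2 and Rps3 help to shape the mRNA entry channel. Rps2 measured 575 and 925 (0 h), 264 and 404 (18 h), 276 and 366 (48 h), then 793 and 509 (120 h), with libraries of 0 h that differed 575 to 925, and Rps3 measured 412 and 414 (0 h), 135 and 191 (18 h), 137 and 154 (48 h), then 467 and 289 (120 h). Rps6, the substrate of S6 kinase, measured 421 and 450 (0 h), 177 and 308 (18 h), 213 and 201 (48 h), then 464 and 377 (120 h). Its centred change at 120 h was 0.83 ± 0.23 (adjusted p = 0.0132). Rps19 and Rps10 are, like Rps24, genes of Diamond-Blackfan anaemia. Rps19 measured 494 and 791 (0 h), 230 and 365 (18 h), 216 and 205 (48 h), then 634 and 425 (120 h), and rose 2.47-fold from 48 h to 120 h (adjusted p = 0.0105). Rps10 measured 232 and 372 (0 h), 112 and 213 (18 h), 145 and 144 (48 h), then 363 and 283 (120 h).

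Rps14, the gene whose loss of a copy underlies the anaemia of 5q- syndrome, measured 236 and 288 (0 h), 102 and 127 (18 h), 109 and 128 (48 h), then 311 and 214 (120 h). Its 0 h and 120 h libraries overlapped, and its centred change at 120 h was 0.88 ± 0.19 (adjusted p = 0.00431). Rps20 measured 262 and 337 (0 h), 96 and 155 (18 h), 107 and 116 (48 h), then 265 and 249 (120 h), and Rps28, whose region also holds the start of Ndufa7, measured 333 and 452 (0 h), 155 and 184 (18 h), 121 and 183 (48 h), then 409 and 342 (120 h). Both were lower in all 4 libraries of 18 h and 48 h than in the others. Rps13 measured 391 and 466 (0 h), 187 and 216 (18 h), 169 and 214 (48 h), then 449 and 349 (120 h), and Rps15 281 and 426 (0 h), 138 and 175 (18 h), 134 and 146 (48 h), then 368 and 250 (120 h). Their centred changes at 120 h were 0.78 ± 0.20 and 0.70 ± 0.20 (adjusted p = 0.00926 and 0.0161).

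The subunits are given side by side. The median change at 18 h was -1.09 in 26 large subunit members, -1.11 in 19 small subunit members and -1.19 in the 3 of the P stalk. At 120 h the centred medians were 0.80, 0.69 and 0.48, with 21, 12 and 1 members called higher. These differences between subunits were not tested.

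For 5 members no start region was found, and Rpl10a had no start peak in 1 library. Rpl10a measured 179 and 223 (0 h), 112 (18 h replicate 2), 109 and 95 (48 h), then 210 and 193 (120 h). Rpl3, which lies at the peptidyl transferase centre, had 13 peaks in 7 libraries, none nearer than 6414 bp to its RefSeq start. Rpl13a, which also acts in translational silencing of inflammatory mRNAs, had 12 peaks in 8 libraries between 5879 and 7703 bp away. Rps21 had 7 peaks, in 7 libraries, all in a region 5987 bp upstream, and Rps29 had 8 peaks from 9294 to 9870 bp away, in the region where Lrr1 starts. Rpl15 had 0 peaks assigned. The higher region near Rpl13a measured 241 and 351 (0 h), 116 and 208 (18 h), 111 and 172 (48 h), then 161 and 72 (120 h). The region near Rps21 measured 158 and 154 (0 h), 83 in the single 18 h library with a peak, 83 and 81 (48 h), then 90 and 76 (120 h). That at the start of Lrr1 measured 85 and 155 (0 h), 54 and 49 (18 h), 64 and 79 (48 h), then 104 and 74 (120 h). All were low beside the member starts at 0 h, apart from the Rpl13a region. The authors kept only read pairs that mapped to a single place, and whether this bears on the missing start peaks was not tested.

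Away from their starts the members had fewer peaks after 0 h. Peaks farther than 1000 bp from the start numbered 83 and 79 (0 h), 43 and 47 (18 h), 45 and 48 (48 h), then 55 and 44 (120 h). Peaks near the start numbered 51 to 55 in every library. The difference between 0 h and later libraries in all peaks of the members was 34.8, and it was 7.33 when the same number of highest peaks was taken from each library. The libraries themselves differed in the same direction, with 72215 and 69089 peaks at 0 h and 24643 to 39551 later. Of the 70 regions away from member starts called in both 0 h libraries, 51.4% were also called in both of 18 h and 52.9% in both of 120 h, against 98.0% and all 50 of the regions at member starts. Of the 37 among them that lay at no start of any gene, 40.5% were called at 18 h and 35.1% at 120 h, and of the 33 at the start of another gene 63.6% and 72.7%. Over the whole series, 32.5% and 25.2% of regions with a gene but away from any start, and 69.0% and 71.8% of regions at a gene start, were called again at 18 h and 120 h. The members' regions at other genes' starts were therefore near the general share, and the differences were not tested.

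**Figure D4:**
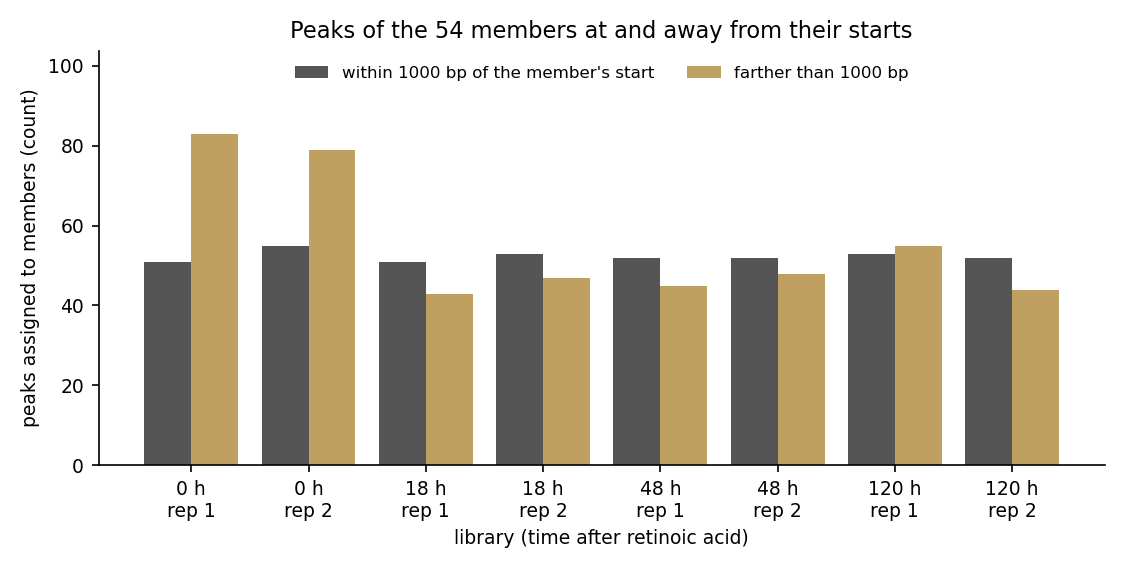
Number of peaks assigned to the 54 members in each library, within 1000 bp of the member's start (grey) and farther away (tan). Grey bars stay between 51 and 55, while tan bars drop from 83 and 79 at 0 h to between 43 and 55 in the later libraries.

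The members with the most peaks away from the start were Rpl17, Rplp2, Rpl14, Rps3 and Rpl7, with 22, 20, 19, 19 and 18 peaks over the 8 libraries, and Rpl8 also had 18. The start region of Rpl7, which it shares with Rdh10, measured 313 and 362 (0 h), 150 and 165 (18 h), 136 and 156 (48 h), then 258 and 203 (120 h). For Rpl17 the highest was the region at the start of BC031181, 5315 bp downstream, with 743 and 952 (0 h), 284 and 334 (18 h), 253 and 356 (48 h), then 678 and 436 (120 h). It was higher than the Rpl17 start region in every library. Near Rps3 the regions were lower than its start. That 6909 bp downstream measured 100 and 109 (0 h), 61 and 73 (18 h), 59 and 65 (48 h), then no peak (120 h). Those 11933 and 15461 bp downstream kept a peak in both 120 h libraries, at 135 and 85 and at 128 and 117. At 0 h they had measured 147 and 202 and 165 and 212. Near Rps19 a region 7430 bp downstream, at the start of no gene, measured 552 and 392 (0 h), 135 and 153 (18 h), 157 and 172 (48 h), then 378 and 202 (120 h). Its 0 h values spanned that of the Rps19 start in replicate 1, and it was below that start in all later libraries. Downstream of Rpl24 the region at the starts of Zbtb11 and 2310061J03Rik measured 714 and 913 (0 h), 337 and 387 (18 h), 286 and 290 (48 h), then 923 and 710 (120 h), above the Rpl24 start in every library.

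Other genes of the ribosome were given as lists. The start regions of 24 cytoplasmic ribosomal protein genes outside the 54 had a median change of -1.32 at 18 h, with 24 lower and 0 higher. Of all regions 92.3% were lower at 18 h, with a median of -1.23. At 120 h these 24 had a centred median of 0.58 with 12 higher and 0 lower. Translation factors whose mRNAs carry a TOP tract (15 tested) had a centred median of 0.52 at 120 h with 6 higher, and ribosome biogenesis factors (33 tested) of 0.51 with 15 higher and 1 lower. For the RNA polymerase I machinery, which makes rRNA (14 tested), it was 0.28 with 2 higher. Proteins of the mitochondrial ribosome (67 tested) had a centred median of 0.35 with 17 higher and 1 lower, close to the 0.36 of all CpG-island starts. The share of members called higher at 120 h, 70.8%, was above those of the lists, which were 12 of 24, 40.0%, 45.5%, 14.3% and 25.4% in the same order, and the differences were not tested. On the same scale 23.0% of all regions and 31.9% of CpG-island starts were higher. The RNA polymerase I list lay below both of these shares, and the mitochondrial list lay between them.

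**Figure D5:**
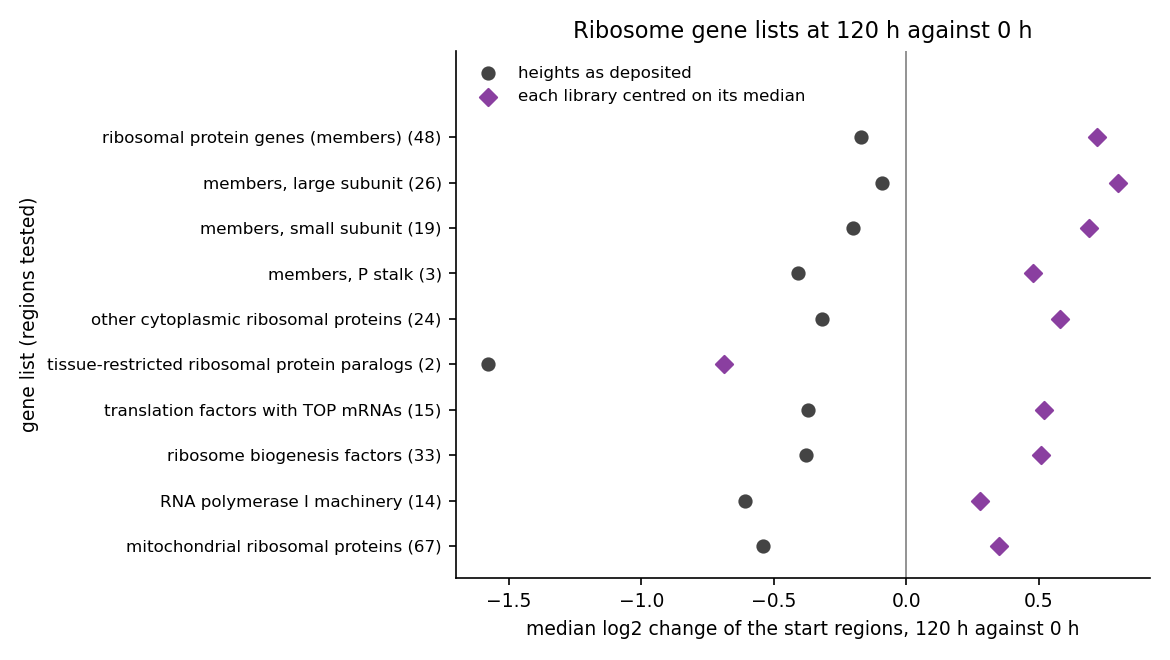
Median log2 change of start regions at 120 h against 0 h for the members, their subunits and 6 other gene lists (number of regions tested in parentheses), for heights as deposited (dots) and for libraries centred on their median region (diamonds). The members stand at -0.17 and 0.72, the mitochondrial ribosomal proteins at -0.54 and 0.35, and the paralogs are the only list below 0 on both scales.

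Constitutive promoters are a common yardstick for accessibility, and the members were used as such here. They were not constant relative to other regions, since their median change centred on the median region was 0.72 at 120 h against 0 h. Centring on the members removes that change and lowers the other regions by about as much. The 120 h counts on this scale are therefore not separate evidence of lower accessibility elsewhere. With each library centred on its member start regions, the median change of all regions against 0 h was -0.14 (18 h), -0.20 (48 h) and -0.59 (120 h). On this scale 7863 regions were lower and 291 higher at 120 h against 0 h, where centring on the median region gave 2449 lower and 3568 higher. Between 120 h and 48 h the counts were 5332 lower and 86 higher on the member scale. At 48 h against 0 h they were 391 lower and 156 higher on the member scale, and 235 lower and 506 higher on the median scale. At 18 h they were 19 lower and 65 higher on the member scale, and 35 lower and 194 higher on the median scale, and at an unadjusted p under 0.05 they were 1824 lower and 599 higher against 776 lower and 1289 higher. Which direction held more calls in other regions thus turned on the yardstick at 48 h and 120 h, and at 18 h in the unadjusted counts.

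The sorted cells were checked by the starts of marker genes. All 6 germ cell markers (Ddx4, Dazl, Piwil2, Dnd1, Mael and Tex101) had a start peak in every library. Of 10 markers of Sertoli, Leydig and peritubular cells, 6 had one in each 0 h library and 3 to 5 in the later ones, of which Wt1 and Acta2 had one in every library and the Leydig markers Star, Cyp11a1, Hsd3b1 and Insl3 in none. The germ cell markers' summed height was 2566 and 3336 (0 h), 1293 and 1628 (18 h), 986 and 1459 (48 h), then 2189 and 1809 (120 h). That of the somatic markers was 775 and 986 (0 h), 220 and 207 (18 h), 238 and 317 (48 h), then 486 and 206 (120 h). Of 6 blood and endothelial markers, 2 had a start peak in each 0 h library and at most 1 in any later one. These values moved with the loss of height and of distal peaks after 0 h, and their part in it was not tested. Open chromatin at a start is not expression, and in bulk cells a change in the mixture of cells and a change within cells cannot be told apart.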

How the data were processed

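ATAC-seq of 8 libraries (2 per timepoint, testes of 1 mouse each) was used. Read pairs had been aligned by the authors to mm10 with BWA (0.7.12 in the submitters' processing notes), duplicates and pairs without a single best place removed, libraries reduced to equal tag number, tags extended to 200 bp and counted in bins of 32 nt. The authors called peaks in each library with MACS2 2.1.0 (p cutoff 1e-07, no control) and deposited for each peak the coverage signal at its summit and its mean, and a list of genes within 10 kb. The lowest summit was 24. Columns of the authors' own comparisons, which hold fold changes and p-values, were not used.

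Overlapping peaks (1 bp or more) of the libraries formed a region, which took the highest summit of each library. The log2 heights of 15536 regions called in every library were fitted with limma 3.58.1 in R 4.3.3, with all 4 timepoints sharing 1 estimate of the spread, and p-values were adjusted by Benjamini-Hochberg over all regions. The steps were tested on simulated data. For the fit, the simulated noise was independent between regions, with no shift of whole libraries, so that test does not cover the shifts seen here. Tables were made with Python 3.11.15, pandas 2.3.3 and numpy 2.4.6, and figures with matplotlib 3.10.9.

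The members and gene lists were chosen with earlier results of these data known. Members were named when they had the 5 most or 5 least negative changes at 18 h, the 3 most extreme changes in either direction at 120 h against 0 h or 48 h, 1 of the 3 highest or lowest start regions, no start peak in some library, a call after centring, or 1 of the 5 highest numbers of peaks away from the start. Replicates came from separate mice. Alternatives were centring of libraries, quantile normalization, a replicate block, fits of only the libraries compared, other limits and filters, and each library left out.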

Additional observations from a re-analysis of the deposited data

How the results depend on the processing

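The count of members lower at 18 h and at 48 h (47 each) was 0 once libraries were centred on their median region, on regions at gene starts or on the member starts, after quantile normalization, and with centring plus the replicate block. For 120 h against 0 h, the count lower (1) was 0 under centring on the median, quantile normalization, centring on gene starts, the replicate block with and without centring, and both fits of only the libraries compared, and 3 when centred on the member starts. The count higher there (0) was 34 under centring with or without the replicate block, 13 after quantile normalization, 18 centred on gene starts and 2 centred on member starts. For 120 h against 48 h, the count higher (32) was 18 centred, 19 centred with the replicate block, 1 after quantile normalization, 5 centred on gene starts, 2 centred on member starts, 17 with only the libraries compared and 19 with all their shared regions. Centring on the member starts sets the members' median to 0 in every library by construction. Counts of members on that scale are therefore largely fixed in advance. The cause of the other changes in count was not tested.

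With a library left out in turn, the members lower at 18 h numbered 14 to 47 (0 centred), and at 48 h 30 to 48 (0 centred). At 120 h against 0 h, 0 to 6 were lower (0 centred) and 0 were higher (13 to 33 centred, with 25 without 0 h replicate 2), and against 48 h 1 to 43 were higher (0 to 17 centred, with 12 without 120 h replicate 1). Members called at all timepoints numbered 48 to 49, and the peak difference was 33.8 to 36.6. Centring with a library left out was chosen after seeing the data.

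Same-numbered replicates deviated together among 0 h, 18 h and 120 h (Pearson's r across regions 0.184, 0.248 and 0.23), but not with 48 h (0.0941, -0.144 and -0.224). Not every pair did, and the labels tie no number to a shared litter or day, so the samples were treated as sharing only a number. The replicate block gave 46 members lower at 18 h, 47 at 48 h and 0 at 120 h, and 26 higher from 48 h to 120 h.

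After centring, 33 of the 48 members had a positive change at 18 h, where all were below 0 as deposited, and at 120 h against 0 h those below 0 went from 36 to 1. Among the members with the most extreme changes, signs turned as follows, in the order of centring, quantile normalization, gene starts and centring with the replicate block. At 18 h the changes were 0.67, 0.59, 0.66 and 0.67 for Rpl19, 0.51, 0.56, 0.51 and 0.51 for Rpl38, and 0.47, 0.50, 0.46 and 0.47 for Rps24. They were 0.40, 0.42, 0.40 and 0.40 for Rps9, and 0.39, 0.36, 0.39 and 0.39 for Rpl22. From 48 h to 120 h Rps9 gave -0.05, -0.23, -0.28 and -0.05. Under quantile normalization and gene starts Rpl32 gave -0.06 and -0.23 and Rpl5 -0.22 and -0.20. At 120 h against 0 h Rps12 gave 0.20 and Rpl37 0.25 under centring with and without the replicate block. With a library left out, Rpl17 ranged from -0.04 (120 h replicate 1) to 0.64 (120 h replicate 2) at 120 h against 0 h, and Rps9 from -0.03 (48 h replicate 1) to 0.93 (48 h replicate 2) against 48 h.

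The difference in member peaks of 34.8 between 0 h and later libraries was 7.33 with the 24643 highest peaks of each library. The mean over libraries of the members' median percentile, 73.1, was 88.6 when all peaks of a library were ranked. TATAAA was in 1 member within 200 bases before the start, against 3 in the whole window. The tag number behind a height is unknown here, so counting error could not be separated from the spread between 2 mice.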

Other observations

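Some ribosomal protein genes outside the 54 stood apart, and were picked after their values were seen. Rpl41, which encodes the smallest ribosomal protein, measured 251 and 307 (0 h), 75 and 100 (18 h), 87 and 81 (48 h), then 511 and 399 (120 h), so that both 120 h libraries lay above both 0 h libraries. Its rise from 48 h to 120 h was 2.43 on the log2 scale (limma, adjusted p = 4.24e-07), and its change against 0 h was 0.70 as deposited (adjusted p = 0.109) and 1.59 after centring (adjusted p = 0.00024). Rps4x, on the X chromosome, measured 157 and 121 (0 h), 34 and 32 (18 h), 41 and 48 (48 h), then 75 and 38 (120 h). It fell by 2.06 on the log2 scale at 18 h (limma, adjusted p = 3.7e-06) and was lower at 120 h than at 0 h (-1.37, adjusted p = 0.0011), whereas neither change was called after centring (-0.80, adjusted p = 0.153, and -0.48, adjusted p = 0.141).

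Of 4 paralogs with restricted expression, 2 had a start region that could be tested, and both lay below 0 h at 120 h. Of all regions 44.8% were called lower at 120 h as deposited, and 15.8% after centring. Rpl39l, used in male germ cells in place of Rpl39, measured 243 and 288 (0 h), 103 and 106 (18 h), 77 and 111 (48 h), then 97 and 54 (120 h). It was lower at 120 h than at 0 h by limma on both scales (-1.87, adjusted p = 6.87e-06, and centred -0.98, adjusted p = 0.00394). Rpl10l, an autosomal copy of the X-linked Rpl10 used in meiosis, measured 179 and 198 (0 h), 75 and 94 (18 h), 57 and 91 (48 h), then 77 and 76 (120 h). It was lower as deposited (-1.30, adjusted p = 0.00199), and its centred change was -0.41 (adjusted p = 0.188).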
